A study of Mus musculus with 31 samples.

Results

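Glucose uptake and the first steps of its breakdown were followed through 10 genes of the 20544 in the count table: the transporters Slc2a1 and Slc2a3, the hexokinases Hk1 and Hk2, the isomerase Gpi1, the phosphofructokinases Pfkl and Pfkp, the aldolase Aldoa, the dehydrogenase Gapdh and the kinase Pgk1. They were chosen by name, for their place in the pathway, and not by a rule on their values, but with earlier results of these data known. A filter on low counts, which asks for enough counts in about as many embryos as the smaller group holds, left 8 of the 10 for the test and removed Hk1 and Hk2. The data are RNA-seq counts of individual mouse embryos at the 2-cell stage after in vitro fertilization, 16 with control sperm and 15 with sperm given SER, a treatment of energy restriction followed by recovery. Every embryo had a C57BL/6J father, aged 12 to 14 weeks, and a superovulated CD1 mother, aged 8 to 10 weeks. SER sperm were kept without glucose and pyruvate until they stopped moving, after 15 to 45 min, and were then given both back. Control sperm were handled in the same way with both substrates present throughout. Gametes were together for 4 h, the embryos then grew in the same culture medium, and collection was at 32 h after insemination. The treatment was therefore given to the sperm only, and no embryo was itself starved. In the paper, the epididymides of a male were split between control and SER medium, and embryos of both groups were sequenced in batches. The labels do not say which embryos shared a father, a mother or a batch, so none of these could be modelled. The p-values therefore measure only the spread between these embryos, and a batch and a treatment difference cannot be told apart here.

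Glucose enters mammalian cells through membrane carriers of the SLC2A family, is trapped by hexokinase as glucose-6-phosphate, and is then isomerized, phosphorylated again by phosphofructokinase and split by aldolase, after which GAPDH and PGK1 carry out the first step that captures energy as ATP. The early cleavage-stage mouse embryo is known for living on pyruvate and lactate and for taking up little glucose, and glycolysis rises later, towards the blastocyst. At the 2-cell stage the embryo also passes from RNA stored in the oocyte to RNA from its own genome, so a transcript found here can be of either origin.

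Several of these genes have near copies elsewhere in the genome, and the reads were short. Of the 45-base windows of the principal Gapdh transcript (the length of the longer read), 82.9% occurred letter for letter in transcripts of other genes, 250 genes in all, and of those of Pgk1 68.1% did, in 5 genes. The share was 28.0% for Gpi1, 17.5% for Aldoa, 17.2% for Pfkp, 1.90% for Slc2a1 and 0.19% for Pfkl, and no window of Slc2a3, Hk1 or Hk2 was shared. For Pfkp the shared windows were those of Pitrm1, a gene on the opposite strand whose exons overlap 748 of its exon bases. For Gpi1 the shared windows occurred in transcripts of 212 genes, and exons of Gm26762, on the opposite strand, overlap 741 of its exon bases. The coding window shared by the most genes is shown for Gapdh, since reads from such windows make its counts uncertain.
Gapdh, GRCm38 chr6:125162897-125162941, minus strand, coding part of exon 4, found in 93 other genes: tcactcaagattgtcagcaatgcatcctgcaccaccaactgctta
Of the 756 coding windows of Gapdh that lie within 1 exon, 0 were free of such a match. The authors kept only uniquely aligned reads among those from the 5′ end, and whether they did so for internal reads is not given in the sources used here. The levels of Gapdh and Pgk1 are therefore those of the reads that could be placed, and their level in the embryo is uncertain.

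Library totals ran from 532945 to 2085222 counts in control- and from 642321 to 3088396 counts in SER-generated embryos. Levels are given as CPM, the count scaled to a common library total, and levels of different genes are compared as CPM per kilobase of the principal transcript (RPKM). In zygotic or cumulus marker genes 3 libraries stood apart. Control replicate 4 and SER replicate 15 had summed levels of 45.3 and 141 CPM over 18 genes of zygotic activation, where the other 29 embryos had 501 to 2477 CPM, so their markers were low for the labelled stage. Control replicate 5 had 3756 CPM summed over 14 markers of cumulus cells, which surround the oocyte, and the others 5.06 to 303 CPM. Its Cyp11a1 and Hsd3b1, steroid-making enzymes named here after their values were seen, had 927 and 1349 counts, against at most 55 and 56 elsewhere, and 6 of the 14 markers were above every other embryo there. Also named after their values were seen, Inha had 35 counts in it against at most 1 elsewhere, Inhba 78 against at most 17 and Fshr 3 against 0. The cumulus markers Amh, Cyp19a1, Has2, Ptx3 and Pappa were at 0 counts in control replicate 5. Each of these was also at 0 in 23 to 29 of the 30 other embryos. In that embryo Pfkp ranked 1st of 31, Gpi1 2nd, Gapdh and Hk2 each 4th, Aldoa 6th, Slc2a1 7th, Hk1 14th, Pgk1 16th, Pfkl 19th and Slc2a3 26th. More cumulus cells and more RNA per such cell cannot be told apart in a library of a whole embryo, the part of these cells in the levels was not tested, and the comparison is given below with and without all 3 embryos. Amhr2, a hormone receptor and the one gene of the cumulus list that passed the filter, was at 95.1 ± 49.2 CPM (SD, n = 16) with control and 132 ± 74.3 CPM (SD, n = 15) with SER sperm. It did not follow Cyp11a1 and Hsd3b1, being at 59.9 CPM in control replicate 5 and at 0 in only 2 of the 30 other embryos. In SER-generated embryos the whole cumulus sum averaged 142 CPM, most of it Amhr2. Whether its counts come from cumulus cells was not tested. Summed sperm markers, 7 genes, reached at most 30.9 CPM, with Prm2, a protamine, the most abundant at 4.06 ± 5.04 and 4.02 ± 4.84 CPM. The defining oocyte gene Oosp1, the most abundant of its list per length, and the zygotic gene Usp17lb were found at medians of 209 and 353 CPM. Summed oocyte transcripts, 12 genes, were highest in SER replicate 15, control replicate 3 and control replicate 4, at 7653, 7088 and 5809 CPM. Control replicate 1 came next at 4187 CPM. Control replicate 3 is not among the 3 embryos left out together below.

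**Figure D1:**
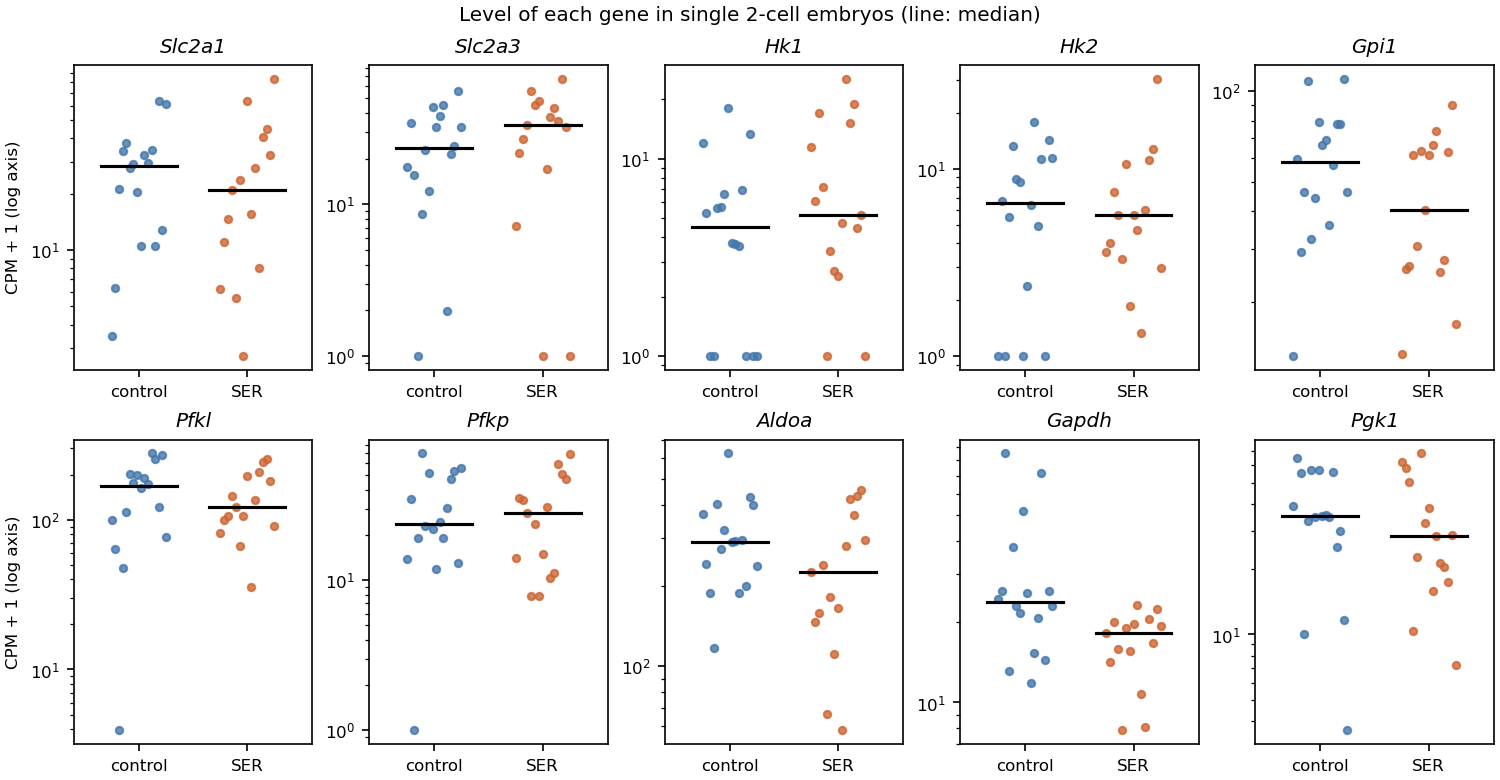
CPM + 1 of each of the 10 genes in 16 control- and 15 SER-generated embryos, 1 point per embryo and 1 panel per gene, on log axes that differ between panels, with a line at the median. The groups overlap for every gene, and the SER-generated embryos have the narrower range for Gapdh, 6.87 to 22.2 CPM against 10.9 to 83.9 CPM.

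Of the transporters, Slc2a1 encodes GLUT1, the widespread carrier of basal glucose uptake, and Slc2a3 encodes GLUT3, a carrier of high affinity. Slc2a1 ranged from 2.46 CPM through a median of 27.4 to 62.6 CPM in control-generated embryos and from 1.71 through 20.2 to 82.2 CPM in SER-generated ones. The groups covered nearly the same range, with means of 26.3 ± 17.5 CPM (SD, n = 16) and 25.8 ± 23.0 CPM (SD, n = 15). Its log2 fold change, SER minus control, was −0.03 ± 0.44 (SE; edgeR quasi-likelihood test, Benjamini-Hochberg adjusted p = 0.997), with an interval of 2 standard errors from −0.91 to 0.85. With limma voom and quality weights per embryo it was −0.78 (adjusted p = 0.221).

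Slc2a3 ranged from 0 through 22.7 to 55.3 CPM with control sperm and from 0 through 32.6 to 66.1 CPM with SER sperm. The SER-generated embryos had the higher median and 10 of 15 lay above the control median, but the ranges overlapped over almost their whole length. The log2 fold change was 0.33 ± 0.50 (SE; edgeR, adjusted p = 0.973). Slc2a3 had no count in 3 embryos: control replicate 4, SER replicate 8 and SER replicate 15. Zero counts allow up to 4.53, 4.67 and 1.17 CPM there (3 counts of the library total, counting error only). Control replicate 12 had a single count, 0.98 CPM. These 4 embryos did not lack the other carrier. Slc2a1 stood at 82.2 CPM in SER replicate 15, the highest of all 31 embryos, and at 62.3 CPM in SER replicate 8.

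The balance between both carriers was therefore taken per embryo, as the share of Slc2a1 in the sum of their RPKM values. It ran from 15.2% through 55.2% to 100% in control- and from 4.23% through 44.7% to 100% in SER-generated embryos. The lowest share was of SER replicate 7, nearly Slc2a3 alone, and Slc2a1 alone was counted in embryos of both groups. The means were 54.6 ± 28.1% (SD, n = 16) and 46.4 ± 27.1% (SD, n = 15). The difference of −8.18 percentage points (interval of 2 standard errors, −28.0 to 11.6) was within the spread between embryos (2-sided permutation test with 100000 resamples, p = 0.413, adjusted over 3 such shares 0.827).

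On a log scale, Slc2a3 was among the most variable of the tested genes. The SD of its log2 level, log2(CPM + 1), over the 31 embryos was 1.74, higher than in 91.1% of the 8571 tested genes, whose median was 1.10. For Slc2a1 it was 1.26 and for Gapdh 0.76, above 61.2% and 21.8% of the tested genes. Embryos without a count of Slc2a3 lie far from the others on this scale, and its SD without them was not taken. As a percentage of the mean CPM, the SD was lower for Slc2a3, at 64.4%, than for Slc2a1 at 76.8% and Gapdh at 73.5%. Slc2a1 and Slc2a3 varied against each other only weakly across the embryos (Spearman's rho −0.27, n = 31, given as a description).

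The levels of both carriers were set against the embryo's summed zygotic activation genes and against 12 summed oocyte transcripts. Slc2a1 was lower where the zygotic genes were higher, with Spearman's rho −0.48 (permutation p = 0.0066) and Pearson's r −0.45 (permutation p = 0.0097) over 31 embryos. Adjusted over all tested genes, the p of rho was 0.0584. Without control replicate 4 and SER replicate 15, the embryos farthest from the median of the zygotic sum, r was −0.44 (permutation p = 0.0171) and rho −0.41 (permutation p = 0.0286), and rho no longer passed the adjusted threshold. Within the control-generated embryos r was −0.45 (permutation p = 0.0868) and rho −0.64 (permutation p = 0.0084). Within the SER-generated embryos r was −0.47 (permutation p = 0.0768) and rho −0.30 (permutation p = 0.283), of the same sign in both groups.

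Slc2a3 fell as the oocyte transcripts rose, with rho −0.59 (permutation p = 0.0006, adjusted 0.0059) and r −0.53 (permutation p = 0.0023). Without control replicate 3 and SER replicate 15, the farthest from the median of the oocyte sum, r was −0.45 and rho −0.53, and the relation had the same sign in the control (r −0.48, permutation p = 0.0512; rho −0.62, permutation p = 0.0134) and the SER group (r −0.57, permutation p = 0.0303; rho −0.56, permutation p = 0.0322). Against the zygotic genes, Slc2a3 had r 0.64 (permutation p = 0.0006) and rho 0.30 (permutation p = 0.0975, adjusted 0.259). That r rested on control replicate 4 and SER replicate 15, since it was 0.27 without them. Such relations were common in these libraries: 18.0% of all tested genes passed an adjusted p of 0.1 with the zygotic sum, 8.82% with a positive and 9.14% with a negative sign, and 34.6% did with the oocyte sum, 12.8% positive and 21.9% negative. The gene and the sum come from the same library and share its total.

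**Figure D2:**
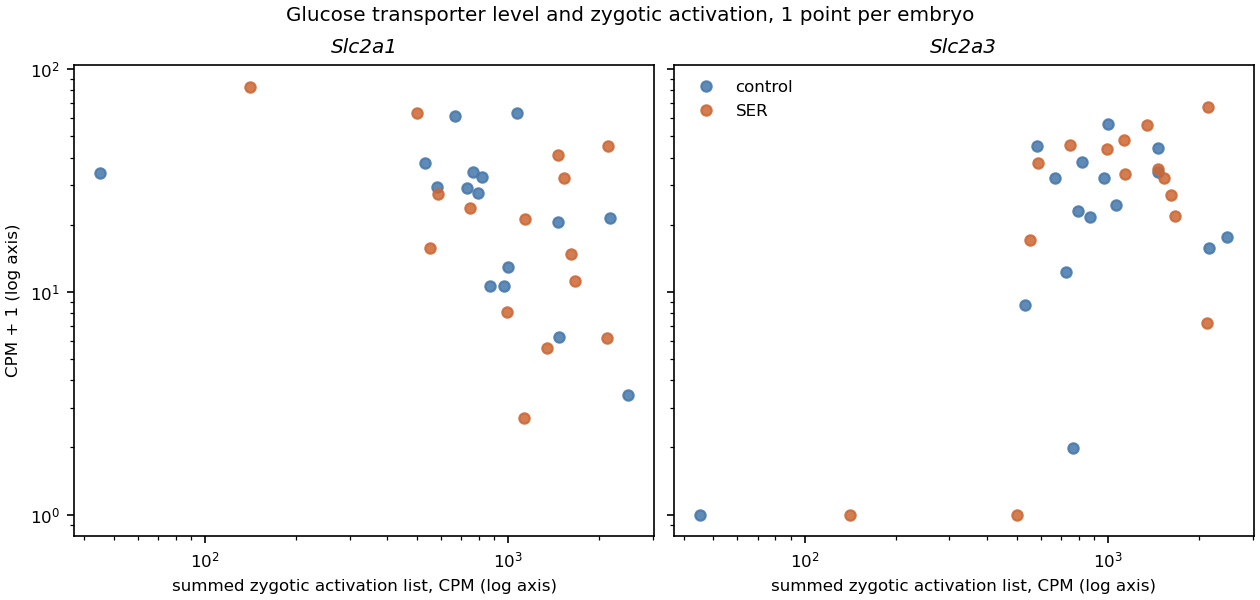
CPM + 1 of Slc2a1 (left) and Slc2a3 (right) against the summed CPM of the zygotic activation genes, both axes log, 1 point per embryo, coloured by group. The embryos at 45.3 and 141 CPM of zygotic genes, control replicate 4 and SER replicate 15, have Slc2a1 but no count of Slc2a3.

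Of the other tested genes, Gpi1 (rho −0.43, permutation p = 0.0169, adjusted 0.0599; r −0.46, permutation p = 0.00998) and Pfkp (rho 0.40, permutation p = 0.0272, adjusted 0.0844; r 0.07, permutation p = 0.700) also passed with the oocyte sum. For Gpi1, r was −0.34 (permutation p = 0.0726) and rho −0.33 (permutation p = 0.0798) without control replicate 3 and SER replicate 15. Within the groups its r was −0.57 (permutation p = 0.0220) in the control and −0.52 (permutation p = 0.0468) in the SER group, and rho was −0.54 and −0.46. For Pfkp, r was 0.43 without those embryos, and the groups differed in sign by r, at −0.45 (permutation p = 0.0849) in the control and 0.67 (permutation p = 0.0056) in the SER group, with rho 0.12 (permutation p = 0.649) and 0.71 (permutation p = 0.0040). In all, 1 of the 8 tested genes passed with the zygotic sum and 3 of 8 with the oocyte sum, beside 18.0% and 34.6% of all tested genes. Within the control group Pfkl was lower where the oocyte sum was higher (rho −0.74, permutation p = 0.0014, r −0.83, permutation p = 3e-05). Control replicates 3 and 4, with the highest oocyte sums of that group, had its lowest Pfkl levels, 2.93 and 46.8 CPM. The control relation was not repeated without them. Within the SER group rho was −0.02 (permutation p = 0.953) and r 0.06 (permutation p = 0.840). Over all 31 embryos r was −0.45 (permutation p = 0.0136) and the adjusted p of rho was 0.205. Without control replicate 3 and SER replicate 15, r was −0.20 (permutation p = 0.301) and rho −0.19 (permutation p = 0.316). Differences between the groups in these relations were not tested.

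The hexokinases, which commit glucose to metabolism in the cell, were the lowest of the 10 genes. Hk1 ranged from 0 through 3.52 to 17.0 CPM with control sperm and from 0 through 4.17 to 24.3 CPM with SER sperm, with no count in 5 control and 2 SER libraries. Hk2, the hexokinase of insulin-responsive tissues, ranged from 0 through 5.59 to 16.9 CPM and from 0.32 through 4.66 to 29.2 CPM, with no count in 4 control libraries. A difference of either was hard to detect, since the median counts per embryo were 3 and 5. In a fit of all 17803 genes with a count, in which 504 (2.83%) passed an adjusted p of 0.1, the log2 fold change was 0.66 ± 0.72 (SE; edgeR, adjusted p = 0.795) for Hk1 and 0.07 ± 0.65 (SE; edgeR, adjusted p = 0.987) for Hk2. Intervals of 2 standard errors reached from −0.77 to 2.09 and from −1.23 to 1.37. The share of Hk1 in both hexokinases was 45.8 ± 37.3% (SD, n = 15, since control replicate 3 had no count of either) in control- and 52.5 ± 32.1% (SD, n = 15) in SER-generated embryos (permutation p = 0.591, adjusted 0.827).

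Gpi1, which turns glucose-6-phosphate into fructose-6-phosphate, ranged from 12.3 through 57.3 to 108.7 CPM with control sperm and from 12.5 through 39.3 to 89.0 CPM with SER sperm. Its means were 58.6 ± 27.2 CPM (SD, n = 16) and 44.8 ± 23.8 CPM (SD, n = 15), and the log2 fold change of −0.39 ± 0.28 (SE; edgeR, adjusted p = 0.935) was within the spread. Phosphofructokinase carries out the main controlled step of the pathway, and Pfkl and Pfkp encode its liver and platelet forms. Pfkl ranged from 2.93 through 166 to 276 CPM with control sperm and from 34.5 through 120 to 255 CPM with SER sperm, and 10 of 15 SER-generated embryos were below the control median. Pfkp ranged from 0 through 22.7 to 69.1 CPM and from 6.83 through 27.2 to 68.5 CPM, and 9 of 15 were above it. Neither differed by more than the spread, with log2 fold changes of −0.13 ± 0.31 (SE; edgeR, adjusted p = 0.981) for Pfkl and −0.04 ± 0.41 (SE; edgeR, adjusted p = 0.996) for Pfkp. Pfkl made up most of the pair in both groups, 83.6 ± 12.3% (SD, n = 16) and 82.7 ± 12.3% (SD, n = 15) of their summed RPKM, and the difference of −0.97 percentage points had an interval from −9.79 to 7.86 (permutation p = 0.827).

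Aldoa, which cleaves fructose bisphosphate into triose phosphates, was the highest of the genes. It ranged from 116 through 291 to 623 CPM with control sperm and from 56.7 through 223 to 454 CPM with SER sperm. Of the SER-generated embryos 3 were below every control and 10 of 15 were below the control median. The means of 304 ± 122 CPM (SD, n = 16) and 239 ± 131 CPM (SD, n = 15) gave a log2 fold change of −0.37 ± 0.26 (SE; edgeR, adjusted p = 0.935). With limma voom and the same weights, which count deviating libraries less, it was −0.75 and passed the threshold (adjusted p = 0.0548), a method by which 9.89% of all tested genes passed, and 5.33% of all tested genes passed as lower.

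Gapdh, the triose phosphate dehydrogenase that is often used as a reference gene, had the largest estimate of the 10 genes. In control-generated embryos it ranged from 10.9 through 22.6 to 83.9 CPM and in SER-generated embryos from 6.87 through 17.2 to 22.2 CPM. All 15 SER-generated embryos were below the control median, 3 of them below every control, and 8 of the 16 control-generated embryos were above every SER-generated embryo. The upper part of the control range came from control replicates 3, 13 and 8, at 83.9, 70.6 and 50.9 CPM, and the others reached at most 36.8 CPM, in control replicate 5, the embryo with the cumulus markers. The log2 fold change was −0.97 ± 0.32 (SE, interval −1.61 to −0.34), with an unadjusted p of 0.0041 in the edgeR test, the 76th smallest of 8571, and an adjusted p of 0.465, so it did not pass. Leaving out single embryos gave −1.04 to −0.73, the weakest without control replicate 3. Leaving out control replicates 4 and 5 and SER replicate 15, which keeps control replicate 3, gave −1.05 (edgeR, adjusted p = 0.371). The estimate was −0.51 with limma voom (adjusted p = 0.291) and −1.01 with DESeq2 (adjusted p = 0.127). These counts are of few reads, 6 to 110 per embryo, and of a gene whose windows recur in transcripts of 250 other genes, as shown above.

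Pgk1, which makes ATP from the product of GAPDH and is X-linked, ranged from 2.62 through 34.0 to 64.3 CPM with control sperm and from 6.23 through 27.5 to 67.2 CPM with SER sperm. Its log2 fold change of −0.23 ± 0.36 (SE; edgeR, adjusted p = 0.973) was within the spread.

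**Figure D3:**
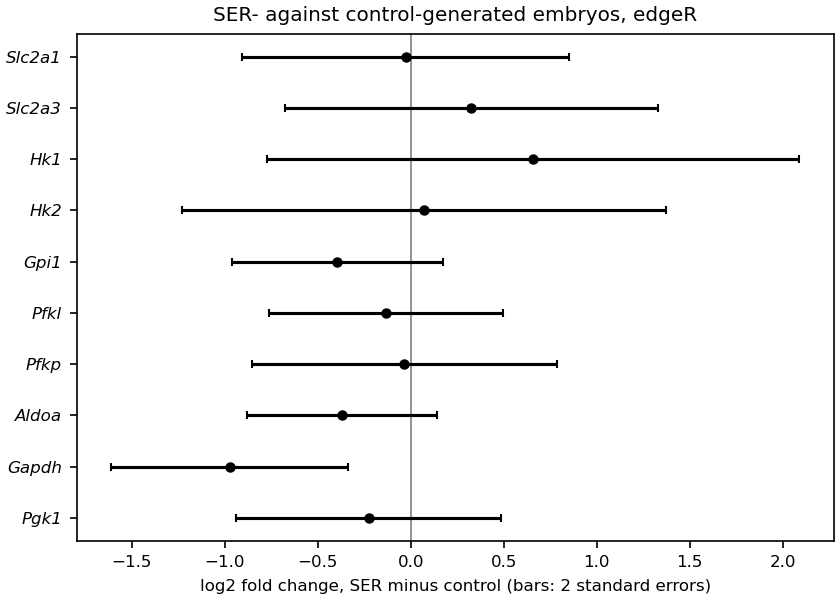
Log2 fold change of each gene, SER minus control, with bars of 2 standard errors, from edgeR (Hk1 and Hk2 from the fit of all genes with a count). The interval of Gapdh, −1.61 to −0.34, lies below 0 and those of the other 9 genes include 0.

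Over the set, 0 of the 8 tested genes passed an adjusted p of 0.1 in the edgeR test, against 0 of the 8571 tested genes (0.0%). At an unadjusted p under 0.05 the counts were 1 of 8 genes, Gapdh, and 491 of 8571 (5.73%), of which 304 (3.55%) were lower in SER-generated embryos. By DESeq2, 49 of 7241 genes with an adjusted p passed (0.677%), and 0 of the 8 did. Leaving out control replicates 4 and 5 and SER replicate 15 also gave 0 of the 8. Estimates were below 0 for 7 of the 8, all but Slc2a3, with a median of −0.18, and for 47.3% of all tested genes, with a median of 0.02. Those of Slc2a1 and Pfkp, near 0, changed sign under some alternatives.

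Per length, the order of the levels over all 31 embryos was Aldoa (180 ± 85.2 RPKM, SD), Pfkl (38.7 ± 19.6), Pgk1 (18.3 ± 10.2), Gpi1 (18.0 ± 9.06), Gapdh (16.1 ± 11.9), Slc2a1 (7.98 ± 6.13), Pfkp (7.06 ± 4.67), Slc2a3 (6.95 ± 4.47), Hk1 (1.55 ± 1.65) and Hk2 (1.15 ± 1.12). Neighbours differed by more than the larger of their SDs at 3 places. Aldoa was above Pfkl in 31 of 31 embryos, Pfkl above Pgk1 in 26 of 31 and Slc2a3 above Hk1 in 26 of 31. Between neighbours, Pgk1, Gpi1, Gapdh, Slc2a1, Pfkp and Slc2a3 were not set apart by this rule, nor were the hexokinases. The rule uses the spread between embryos, leaves out that both genes were counted in the same embryos, and does not test the order. Gapdh was above Slc2a1 in 23 of 31 embryos, but their means differed by less than the larger SD. Over all annotated exon bases in place of the principal transcript, 3 pairs of neighbours exchanged places: Gapdh at 5.55 and Slc2a1 at 7.42 RPKM, Pfkp at 2.18 and Slc2a3 at 3.80 RPKM, and Hk1 at 0.70 and Hk2 at 1.06 RPKM.

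**Figure D4:**
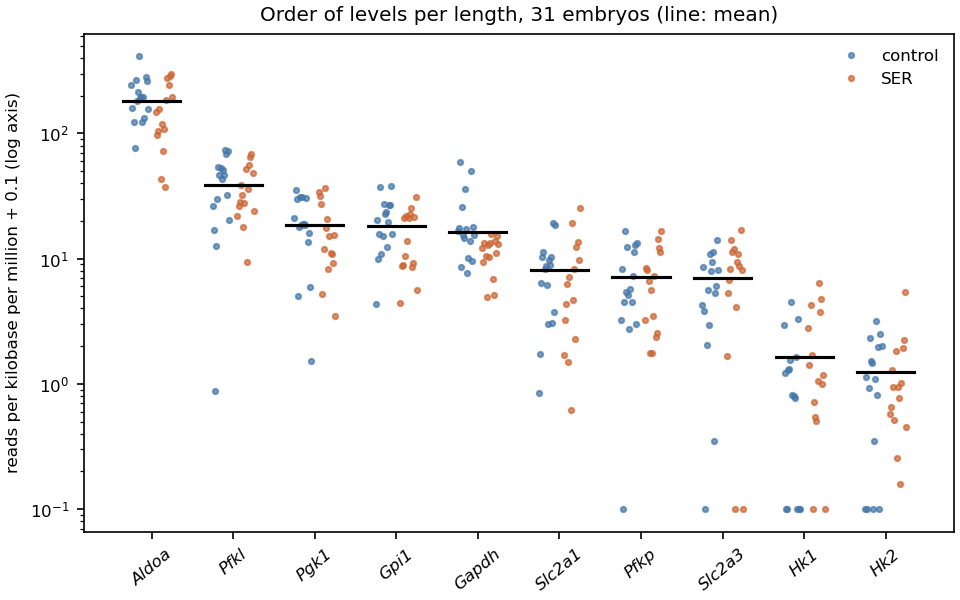
CPM per kilobase of the principal transcript + 0.1, on a log axis, for the 10 genes in order of their mean (line), with 16 control- and 15 SER-generated embryos beside each other. Aldoa is at 180 RPKM on average and Hk2 at 1.15 RPKM.

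The 10 genes were also compared in pairs across the embryos, and 30 of the 45 pairs had a positive Spearman's rho. Pairs of other genes were not set beside them, so whether the pathway varied as a block was not tested. Pairs with Hk1 or Hk2 rest on few counts. Of the 45 pairs, 2 had a Spearman's rho of at least 0.5, Slc2a1 with Pfkp (0.60) and Pfkl with Aldoa (0.54), the median over pairs was 0.16 and the lowest was −0.31, for Slc2a1 with Pgk1 (n = 31 each, descriptions over libraries that differ in depth). The sequence before the start of Slc2a1 and Pfkp, the pair that varied most alike, is shown from RefSeq (GRCm38.p6), up to the first base of the gene in GENCODE vM21, with capitals for GC boxes (GGGCGG, on either strand).
Slc2a1, chr4:119108495-119108710, plus strand: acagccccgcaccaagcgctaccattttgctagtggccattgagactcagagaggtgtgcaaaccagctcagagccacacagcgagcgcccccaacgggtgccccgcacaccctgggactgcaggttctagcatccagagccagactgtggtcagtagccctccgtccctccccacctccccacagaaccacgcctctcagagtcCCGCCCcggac
Pfkp, chr13:6648778-6649021, minus strand: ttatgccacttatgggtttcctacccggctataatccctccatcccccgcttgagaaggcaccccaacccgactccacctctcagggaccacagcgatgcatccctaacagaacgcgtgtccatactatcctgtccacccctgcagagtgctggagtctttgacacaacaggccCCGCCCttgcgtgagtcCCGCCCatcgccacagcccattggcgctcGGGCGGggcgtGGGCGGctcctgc
The stretch of Slc2a1 held 1 GC box and that of Pfkp 4. In the 250 bases before the RefSeq start, 9 of the 10 genes had 12 entries, of which 7 held a GC box, 5 the core ACGTG of the hypoxia response element and 0 the TATA box TATAAA. The entries include 2 of Aldoa that overlap. Of all 32851 entries searched in the same way, 32.7%, 16.6% and 12.4% held these letters on either strand. A match is a description of the letters only.

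The genes whose level followed each transporter most closely over the 31 embryos were Hsd3b7 (rho 0.89) and Mxd1 (0.87) for Slc2a1 and Zdhhc7 (0.78) and Heatr3 (0.76) for Slc2a3. For Pfkp they were Spop (0.80) and Dusp23 (0.76), for Pgk1 BC147527 (0.80) and Nptn (0.78), for Pfkl B4galt3 (0.75) and Arid5a (0.74), and for Aldoa Mrps7 (0.73) and the zygotic gene Zscan4f (0.68). The matches were looser for Gpi1, with Ankle1 (0.68) and Slc35e4 (0.67), and for Gapdh, with Ift46 (0.68) and Timm8b (0.63).

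Around these genes, the rest of the pathway was taken from lists of 87 genes, of which 44 passed the filter. By edgeR, 0 of the 44 passed an adjusted p of 0.1, 2 were lower at an unadjusted p under 0.05 (beside 3.55% of all tested genes) and 0 higher, 19 estimates were above and 25 below 0, and the median was −0.08. DESeq2 also called 0 of them and limma voom 4, beside 9.89% of all tested genes. Of the 12 other hexose transporters only Slc2a8, a carrier of inner membranes, passed the filter, at 9.68 ± 10.1 CPM (SD, n = 16) with control and 16.5 ± 17.5 CPM (SD, n = 15) with SER sperm, and the values below have the same n. Of 16 other glycolytic enzymes 5 passed it, 4 with estimates below 0. Bpgm, which makes 2,3-bisphosphoglycerate, was the highest of them per length at 934 ± 1002 and 669 ± 492 CPM and had the lowest estimate (log2 fold change −0.58 ± 0.36, SE; edgeR, adjusted p = 0.912). Eno1, an enolase, was at 17.9 ± 9.26 and 19.6 ± 12.4 CPM.

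Of the 14 regulators and gluconeogenic genes 6 passed the filter, 5 with estimates above 0, and 0 had an unadjusted p under 0.05. Pfkfb3, which makes the activator of phosphofructokinase, was at 18.1 ± 19.5 and 28.2 ± 19.7 CPM, and Tigar, a phosphatase that removes that activator, at 274 ± 114 and 236 ± 117 CPM. The pentose phosphate and hexosamine branches, which draw on glucose-6-phosphate and fructose-6-phosphate, had 12 of 15 genes past the filter, 4 with estimates above and 8 below 0. G6pdx, the entry enzyme of the pentose phosphate branch, was the highest of them per length at 613 ± 358 and 599 ± 498 CPM. Pgd, which acts later in that branch, stood at 143 ± 81.6 and 219 ± 161 CPM, and Gnpnat1, of hexosamine synthesis, at 86.4 ± 40.8 and 61.7 ± 33.3 CPM, both within the spread (edgeR, adjusted p = 0.889 and 0.869).

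Of the glycogen and polyol genes 8 of 12 passed the filter, 7 with estimates above 0. The exception was Pygm, the glycogen phosphorylase of muscle, at 41.7 ± 29.2 and 15.9 ± 11.7 CPM (log2 fold change −1.36 ± 0.44, SE; unadjusted p = 0.0036, adjusted p = 0.465 by edgeR). Gyg, the primer of glycogen synthesis, stood at 471 ± 223 and 499.8 ± 377 CPM, and Sord, sorbitol dehydrogenase, at 86.4 ± 52.4 and 116 ± 45.7 CPM. The genes of pyruvate and lactate use, the substrates of the early embryo, had 11 of 13 members past the filter, 10 of them with estimates below 0 and a median of −0.36. Ldhb, the lactate dehydrogenase of oxidative tissues, was the highest per length at 501 ± 490 and 373 ± 417 CPM. Ldha, its glycolytic counterpart, had the lowest estimate, at 70.9 ± 47.7 and 42.2 ± 23.5 CPM (log2 fold change −0.77 ± 0.41, SE; edgeR, adjusted p = 0.869). Pdhb, of the pyruvate dehydrogenase complex, had the one estimate above 0, at 167 ± 99.1 and 182 ± 49.1 CPM. Pdhx, another part of that complex, named after its values were seen, was the second gene with a small unadjusted p, at 102 ± 34.5 and 69.0 ± 55.9 CPM (log2 fold change −0.59 ± 0.27, SE; unadjusted p = 0.038, adjusted p = 0.826 by edgeR). Of 5 sperm-specific isozymes of glycolysis only Ldhc passed the filter, at 12.2 ± 13.2 and 7.65 ± 6.01 CPM, and their sum was at most 51.7 CPM in any embryo.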

How the data were processed

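Single 2-cell embryos, 16 control- and 15 SER-generated, were sequenced by Smart-seq3. The authors aligned 5′ reads with a molecular identifier and internal reads without one by STAR, deduplicated the former with UMI-tools and the latter with Picard, and counted the merged reads per gene by featureCounts. The labels name mm10, and the strand setting is not given in the sources used here. The deposited values are whole-number counts of 20544 genes, without normalization. The authors corrected for batches, which the labels do not name per embryo, so no batch term was used here.

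SER- and control-generated embryos were compared on the deposited counts in R 4.3.3 by the quasi-likelihood test of edgeR 4.0.16 with TMM and Benjamini-Hochberg adjustment over the 8571 genes kept by filterByExpr (minimum count 10, minimum total count 15), and an adjusted p under 0.1 was the threshold. Hk1 and Hk2 were read from the fit of all 17803 genes with a count. A standard error is the log2 fold change divided by the square root of F, and intervals are 2 standard errors. Shares and relations were tested by 2-sided permutation with 100000 resamples. Relations were planned to be adjusted over their own 20 and were adjusted over all tested genes instead. Transcript lengths and positions came from GENCODE vM21 (GRCm38, the same build as mm10), in which 20328 of the 20544 symbols were found. The script was tested on simulated counts. Alternatives were DESeq2 1.42.0 and its size factors, limma 3.58.1 voom, sva 3.50.0, other filters, thinned counts, the library total as covariate, a replicate block, a threshold of 0.05, other lengths and embryos left out.

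Depth ran from 532945 to 3088396 counts. Internal reads carry no molecular identifier, so floors of 3 counts cover counting error only. The genes named were the 10 members, in each pathway list the tested genes with the highest and the lowest log2 fold change and the highest level per length, the most abundant markers, and the 2 tested genes whose log2(CPM + 1) followed each tested member most closely by Spearman's rho. Members and lists were chosen with earlier results of these data known.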

Additional observations from a re-analysis of the deposited data

How the results depend on the processing

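The count of genes past the threshold, 0 of 8571 by edgeR, depended most on the method. Without the filter it was 504 of 17803 genes (2.83%), 141 higher and 363 lower. With DESeq2 it was 49 of 7241 (0.677%) and with limma voom and quality weights 848 of 8571 (9.89%). With 5 surrogate variables it was 7. Of the 8 tested genes, voom called 1, Aldoa, and of the wider pathway the fit without the filter called 1 (Slc16a7) and voom 4 (G6pdx, Pygm, Pdhb and Pdhx), named here after their values were seen. Slc16a7 had failed the filter and had no count in 12 control and 14 SER libraries, with means of 0.88 and 0.03 CPM. Leaving out each embryo in turn gave 0 to 0 calls for all 3 counts. The cause of these differences was not tested.

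Of 418 estimates of the 10 genes under the alternatives, 385 kept their direction and their side of the threshold, 1 passed it and 32 changed sign. Those 32 were all of Slc2a1, Slc2a3, Hk2 and Pfkp, whose estimates were small beside their errors. The 385 overstate the stability, since many alternatives could change little. The threshold of 0.05 repeats the main estimates, so it could move neither sign nor side. For Hk1 and Hk2 the fit without the filter is the main fit. For each gene, 31 alternatives left out a single embryo and share all others with the main fit. Slc2a1 was 0.26, Slc2a3 −0.0290 and Hk2 −0.21 with surrogate variables, Hk2 was −0.19 with voom and −0.11 with the library total as covariate, and Pfkp was 0.0109 with the replicate block. With single embryos left out, Slc2a1 ran from −0.31 to 0.11 (but was −0.78 with voom, where Pfkl was −0.57), Hk2 from −0.35 to 0.24 and Pfkp from −0.207 to 0.0822. Gapdh, Aldoa, Gpi1, Pgk1, Pfkl and Hk1 kept their sign throughout. The Pfkl share differed by 0.0307 percentage points with thinned counts and by −2.50 to 0.907 with single embryos left out, the Slc2a1 share by −12.0 to −5.16 and the Hk1 share by 3.44 to 10.6.

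Of the relations with the zygotic and oocyte sums, 4 passed over all embryos (beside 18.0% and 34.6% of all tested genes), 2 within the control group (20.5% and 12.3%), 1 within the SER group (0.0467% and 13.6%) and 2 without the embryos farthest from the median (9.64% and 26.8%). Fewer embryos enter the last 3.

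The labels do not say whether the replicate numbers pair the embryos. Correlations of differently numbered embryos were not set beside the values below, so these cannot exclude a pairing or a shared batch. The deviations of same-numbered embryos correlated from −0.35 to 0.48 over 15 pairs, 8 of them over 0.1, and 2 SER-generated embryos matched best the control of their own number. With the number as a replicate block, 0 genes passed, Gapdh was at −0.77, and the shares of Slc2a1, Hk1 and Pfkl differed by −7.16, 1.69 and −2.50 percentage points.

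The hexokinases were at a median of 3 and 5 counts per embryo. Hk1 had 0 counts in SER replicate 15, of 2567720 counts, and Hk2 had 1 in SER replicate 10, of 3088396 counts. Whether depth or a low RNA level sets these counts was not tested.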

Other observations

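Added after the data had been seen, the share of Slc2a1 in both carriers was set against the sums of both lists over 31 embryos. With the zygotic sum rho was −0.52 (permutation p = 0.0040, 10000 resamples) and r −0.60 (permutation p = 0.0010), and without control replicate 4 and SER replicate 15 they were −0.42 and −0.44. Within the control group rho was −0.67 (permutation p = 0.0056) and r −0.60 (permutation p = 0.0040), and within the SER group rho was −0.28 (permutation p = 0.311) and r −0.59 (permutation p = 0.0318). With the oocyte sum rho was 0.48 (permutation p = 0.0068) and r 0.50 (permutation p = 0.0052), and without control replicate 3 and SER replicate 15 they were 0.40 and 0.43. Within the control group rho was 0.40 (permutation p = 0.128) and r 0.36 (permutation p = 0.171), and within the SER group rho was 0.44 (permutation p = 0.108) and r 0.60 (permutation p = 0.0178). These 2 relations share embryos and transcripts with those of the single carriers and are not independent of them.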
